A study of Mus musculus with 12 samples.

Results

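Lipid droplets store triglyceride in hepatocytes under a coat of proteins, and lipases that act at their surface release the fatty acids again. The 10 genes described here encode proteins of that surface and the lipases that empty it: Pnpla3, Pnpla2, Plin2, Plin4, Plin5, Cidec, Cideb, G0s2, Lipe and Mgll. They were chosen by gene symbol in the platform annotation, and each symbol had 1 transcript cluster, so that 10 of 21789 clusters with a single gene symbol stood for them (35557 clusters in the whole table). Of the 10, Pnpla3 and Mgll changed in at least 1 of 7 comparisons, at an adjusted p under 0.05 in limma, and the other 8 in none. Pnpla3 was 6.09-fold higher in mutant than in control liver of euthyroid mice, and Mgll was 3.08-fold lower in hypothyroid than in euthyroid control liver.

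Total liver RNA of 12 mice was hybridised to Affymetrix mouse Gene 1.0 ST arrays, in 4 groups of 3: mutant hypothyroid (labelled replicates 5, 6 and 7), mutant euthyroid (2, 3 and 4), control hypothyroid (17, 18 and 20) and control euthyroid (13, 14 and 15). The mutants are L-NCoR∆ID mice. In published work on this line, a Cre recombinase under the albumin promoter leaves hepatocytes with an NCoR protein that lacks receptor interaction domains, the promoter being one of hepatocytes and not of other liver cells. NCoR is a corepressor that thyroid hormone receptors recruit in the absence of hormone, and the series asks about its part in genes that the hormone raises or lowers. The labels give neither the strain, age and sex of the mice nor how hypothyroidism was brought about. They also do not say whether the 3 samples of a group were raised apart. The p-values therefore set a group difference against the spread within the 4 groups of these samples only. No cluster was named Ncor1, so the altered gene was not analysed here.

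In the breakdown of stored fat, Pnpla2 (adipose triglyceride lipase) removes the first fatty acid, Lipe (hormone-sensitive lipase) acts on diacylglycerol, and Mgll (monoacylglycerol lipase) removes the last. G0s2 is a small inhibitor of Pnpla2. Pnpla3, a close relative of Pnpla2, sits on droplets and is known as a gene switched on with fat synthesis. Plin2, Plin4 and Plin5 are perilipins that coat droplets, Plin2 being the main perilipin of hepatocytes. Cidec promotes the fusion of droplets, and Cideb is a hepatocyte protein known for loading lipid onto lipoproteins.

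Promoters are shown for both called genes and for Pnpla2, the paralog of Pnpla3 that was not called. Each is given as the 250 bases before an annotated start (RefSeq, GRCm38.p6, written 5′ to 3′ on the strand of the gene). All 10 genes had an entry, with 14 starts in all. These windows lie at chr15:84167566-84167815 (plus strand) for Pnpla3, chr6:88724162-88724411 (plus strand) for the first listed start of Mgll and chr7:141454938-141455187 (plus strand) for Pnpla2. Capitals mark matches on either strand to 3 short motifs: the GC-box GGGCGG, the E-box CACGTG and the nuclear receptor half-site AGGTCA.
Pnpla3: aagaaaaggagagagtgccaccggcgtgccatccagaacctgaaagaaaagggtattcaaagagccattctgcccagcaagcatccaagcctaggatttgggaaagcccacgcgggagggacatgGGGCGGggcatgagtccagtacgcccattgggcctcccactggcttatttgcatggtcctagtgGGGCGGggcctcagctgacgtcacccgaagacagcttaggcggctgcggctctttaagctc
Mgll first start: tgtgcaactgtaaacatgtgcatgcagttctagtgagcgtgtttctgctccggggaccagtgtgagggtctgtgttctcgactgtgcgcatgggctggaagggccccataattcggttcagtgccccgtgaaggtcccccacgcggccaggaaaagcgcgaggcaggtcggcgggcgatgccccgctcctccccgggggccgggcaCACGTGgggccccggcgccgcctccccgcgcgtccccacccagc
Pnpla2: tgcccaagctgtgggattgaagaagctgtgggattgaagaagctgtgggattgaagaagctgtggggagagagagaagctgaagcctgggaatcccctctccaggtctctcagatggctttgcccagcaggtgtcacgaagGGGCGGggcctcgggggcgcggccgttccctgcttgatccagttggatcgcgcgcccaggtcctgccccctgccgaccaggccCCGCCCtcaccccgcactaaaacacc
The Pnpla3 window held 2 GC-boxes and no E-box, and the first Mgll window held an E-box that ends 38 bases before the start. Of all 32851 promoter windows of this length, 32.7% held a GC-box, 6.02% the E-box and 14% the half-site. Of the 14 windows of the 10 genes, 8 held a GC-box, 2 the E-box and 2 the half-site. The GC-boxes belonged to 7 genes, Mgll among them only by its second start, which is not shown. The E-box was in windows of Mgll and Lipe, and the half-site in windows of Plin2 and Plin5. The DR4 element (a direct repeat of the half-site bound by thyroid hormone receptors and LXR), the DR1 element (a direct repeat bound by PPARs) and the sterol regulatory element of the LDL receptor gene were in 0 of the 14 windows. Exact DR4 repeats were in 0.0152%, DR1 repeats in 0.0335% and the sterol regulatory element in 0.0731% of all windows. A missing match says only that these letters are not in this stretch.

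Array medians lay between 4.16 and 4.32 on the log2 scale. The spread of an array, as the SD of its log2 values, was 2.32 to 2.35 in mutant hypothyroid, 2.26 to 2.31 in mutant euthyroid, 2.29 to 2.30 in control hypothyroid and 2.22 to 2.28 in control euthyroid mice. All 6 hepatocyte markers measured lay above the median of every array, with a list mean of 12.7 to 12.9 on the log2 scale in each mouse, and of them Ttr rose with hypothyroidism in the average over genotypes (0.32 ± 0.0769 SE, limma adjusted p = 0.0259). Over all clusters 2 arrays stood apart, replicate 14 of the euthyroid controls and replicate 7 of the hypothyroid mutants, and leaving both out changed no call of the 10 genes.

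Pnpla3 separated the genotypes. Its log2 signal was 6.06, 5.53 and 5.21 in mutant hypothyroid mice and 6.89, 7.56 and 7.88 in mutant euthyroid mice, against 4.87, 4.27 and 4.41 in control hypothyroid mice and 4.67, 4.97 and 4.88 in control euthyroid mice. All 6 mutants were higher than all 6 controls, as in 0.643% of all clusters. In euthyroid mice the mutants averaged 7.45 ± 0.505 and the controls 4.84 ± 0.156 (SD, n = 3 each). The difference of 2.61 ± 0.248 (SE) on the log2 scale had the smallest p of all 21789 clusters (limma adjusted p = 0.000637). It was called whichever array was left out and under every other setting tried, with values of 2.39 to 2.88.

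In hypothyroid mice the mutants averaged 5.60 ± 0.430 and the controls 4.52 ± 0.316 (SD, n = 3 each), a difference of 1.08 ± 0.248 (SE) with a 95% confidence interval of 0.55 to 1.61. This 2.12-fold difference was not called after adjustment over all clusters (limma adjusted p = 0.112, between 0.0502 and 0.410 in the alternatives), although the groups did not overlap, as was so for 12.4% of clusters in this direction. Averaged over thyroid states, the mutant difference was 1.85 ± 0.176 (SE, adjusted p = 0.000126). It was thus the 1 member of 10 that rose with the mutation, in euthyroid mice, where 0.124% of all clusters rose, and in the average, where 0.904% did. In hypothyroid mice 0 of 10 members were called by limma, where 0.262% of clusters were. There 2 of 10, Pnpla3 and Cideb, had an unadjusted p under 0.05, as had 2267 of all 21789 clusters. No member fell with the mutation (0 of 10 in euthyroid mice, against 0.00459% of clusters, and 0 of 10 in the average, against 0.234%).

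Within the mutants, Pnpla3 was lower in the hypothyroid mice. Their mean of 5.60 against 7.45 in euthyroid mutants made a difference of -1.84 ± 0.248 (SE), or 3.59-fold (limma adjusted p = 0.00159), and the groups did not overlap. Such a separation was seen for 5 of the 10 genes (Pnpla3, Mgll, Pnpla2, Cidec and Lipe) and for 11.1% of clusters. In controls Pnpla3 lay at 4.27 to 4.97, not far above the array medians of 4.16 to 4.32, where a fall could be understated. The hypothyroid less euthyroid difference in controls was -0.32 ± 0.248 (SE, adjusted p = 0.614), and the hypothyroid and euthyroid values overlapped. The mutant minus control difference was thus 1.08 in hypothyroid and 2.61 in euthyroid mice, and the difference between them, -1.52 ± 0.351 (SE), ranked 11th by p among all clusters. Its unadjusted p from limma was 0.000598 and its adjusted p 1.00, so the interaction was not called. No cluster was called for the interaction (0 of 21789, or 0%), with 600 clusters and 2 members, Pnpla3 and G0s2, at an unadjusted p under 0.05. With array SD as a covariate the fall in mutants was -1.49 ± 0.341 (SE) and no longer called (adjusted p = 0.137), and the fall averaged over genotypes, -1.08 ± 0.176 (adjusted p = 0.00214) without the covariate, was -0.79 and not called either (adjusted p = 0.266). Array SD did not overlap between hypothyroid and euthyroid mice within either genotype. The covariate and thyroid state therefore cannot be told apart well, in mutants or in the average over genotypes.

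Kupffer cells are the resident macrophages of the liver. The mean of 9 of their markers was, like Pnpla3, highest in mutant euthyroid and lowest in control hypothyroid mice. By mouse, this mean log2 signal was 5.24 to 6.03 in mutant hypothyroid and 6.04 to 6.99 in mutant euthyroid mice. It was 5.14 to 5.34 in control hypothyroid and 5.65 to 5.72 in control euthyroid mice. It averaged 5.62 in mutant hypothyroid and 5.68 in control euthyroid mice, where Pnpla3 averaged 5.60 and 4.84. Within both mutant groups the mouse highest in Pnpla3 was lowest in the marker mean (replicates 5 and 4). Within both control groups the mouse highest in Pnpla3 was also highest in the marker mean (replicates 17 and 14). Of the 9, Adgre1 rose with the mutation in the average over thyroid states (0.66 ± 0.145 SE, limma adjusted p = 0.0427), while 0 were called between mutants and controls of either thyroid state alone. Whether the marker cells had a part in the result for Pnpla3 was not tested, and in whole liver fewer cells of a type and less RNA per cell cannot be told apart.

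**Figure D1:**
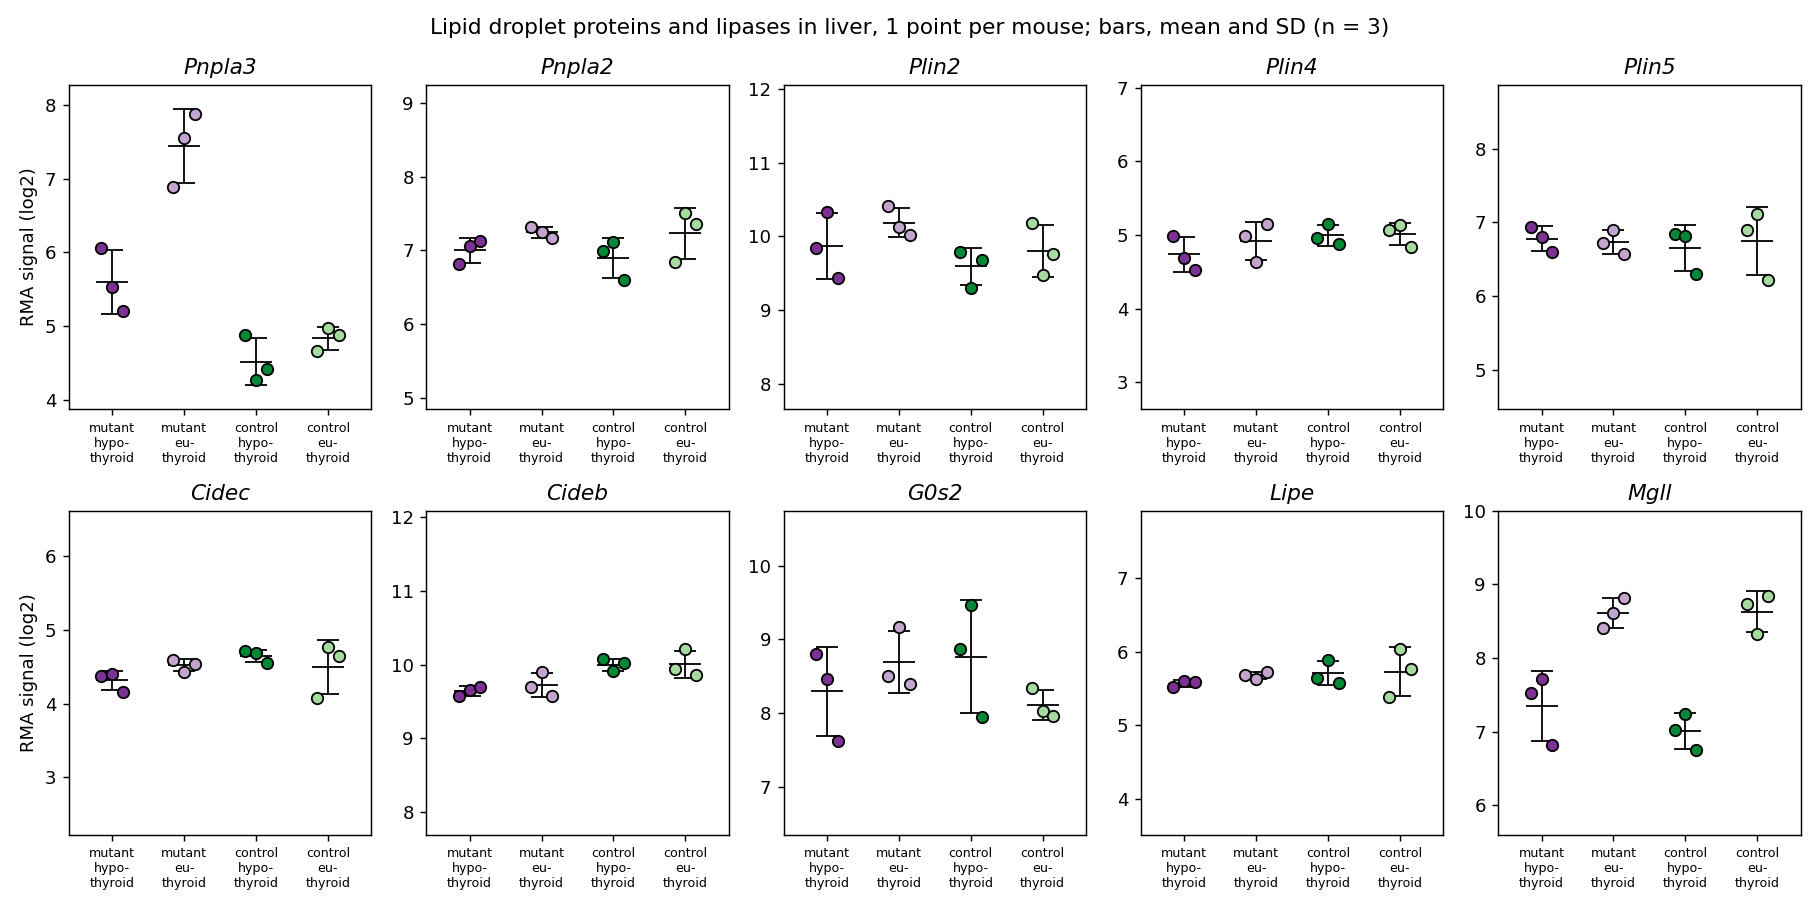
Log2 RMA signal of each of the 10 genes in each mouse, with the group mean and SD (n = 3) as bars and the same span of log2 units in every panel. Pnpla3 is above 6.8 in each mutant euthyroid mouse and below 5 in every control, and Mgll is lower in the hypothyroid groups of both genotypes.

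Genes with the pattern of Pnpla3 over the 12 arrays were sought by the root mean square distance of log2 values after removing each gene's mean. Serpina12, which encodes the secreted serpin vaspin, was nearest at 0.59, followed by the oxysterol hydroxylase gene Cyp7b1 at 0.60 and the acyl-CoA thioesterase gene Acot11 at 0.62, against a median distance of 1.19 over all clusters. Serpina12 averaged 3.31 ± 0.441 in mutant hypothyroid, 4.65 ± 0.653 in mutant euthyroid, 2.90 ± 0.262 in control hypothyroid and 2.72 ± 0.128 in control euthyroid mice (SD, n = 3). Except in euthyroid mutants, its means lay below the array medians of 4.16 to 4.32, where differences could be understated. These genes were picked for their likeness to Pnpla3, so that their values are a description. Serpina12 differed by 1.93 between mutants and controls in euthyroid mice and by -1.35 between hypothyroid and euthyroid mutants. Between hypothyroid and euthyroid controls Cyp7b1 differed by -1.10 and Acot11 by -0.91, where Pnpla3 differed by -0.32.

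Fatty acid synthesis is the pathway with which Pnpla3 is known to be switched on. Of 14 measured lipogenic regulators and enzymes, 6 rose in mutant against control liver of euthyroid mice, where 0.124% of clusters rose, 5 in hypothyroid mice, where 0.262% were called in either direction, and 9 in the average, where 0.904% rose. None of the 14 fell (0 in each comparison), with a median difference in the average of 1.04 against -0.01 over all clusters. Thrsp, known both for lipogenesis and for its response to thyroid hormone, differed between mutants and controls by 2.16 ± 0.3 (SE) in hypothyroid and 2.07 ± 0.3 in euthyroid mice. The elongase gene Elovl6 was 3.94-fold higher in hypothyroid and 4.01-fold higher in euthyroid mutants than in their controls, and Me1, malic enzyme, differed by 1.58 ± 0.222 in hypothyroid and 1.55 ± 0.222 in euthyroid mice. For these 3 genes the hypothyroid less euthyroid contrast of mutant effects was 0.09, -0.02 and 0.033, against -1.52 for Pnpla3. Among the same 14 genes the desaturases ran opposite ways in that contrast, with 0.79 ± 0.259 (SE) for Scd2 and -0.57 ± 0.246 for Scd1, neither called. That Pnpla3 differs from these genes in this contrast was not tested. With hypothyroidism 3 of the 14 rose in the average over genotypes, Scd2, Acly and Scd1, against 4.18% of clusters, and 0 fell. Srebf1, a transcription factor gene of lipogenesis, averaged 9.12 ± 0.135 in mutant hypothyroid, 9.18 ± 0.118 in mutant euthyroid, 8.85 ± 0.304 in control hypothyroid and 8.84 ± 0.0351 in control euthyroid mice (SD, n = 3) and was not called in any comparison.

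Mgll, the last lipase of the cascade, differed between thyroid states. Its log2 signal was 7.52, 7.71 and 6.81 in mutant hypothyroid mice, against 8.41, 8.61 and 8.82 in mutant euthyroid mice. In controls it was 7.02, 7.24 and 6.76 in hypothyroid mice, against 8.73, 8.32 and 8.84 in euthyroid mice. All 6 hypothyroid mice were lower than all 6 euthyroid mice, as in 1.13% of all clusters. In controls the hypothyroid mean was 7.01 ± 0.243 and the euthyroid mean 8.63 ± 0.275 (SD, n = 3 each), a difference of -1.62 ± 0.217 (SE, limma adjusted p = 0.00096). In mutants the means were 7.35 ± 0.474 and 8.61 ± 0.202, a difference of -1.26 ± 0.217 (SE), or 2.40-fold lower (adjusted p = 0.0095). Averaged over genotypes Mgll fell by 1.44 ± 0.153 (SE, adjusted p = 6e-05).

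In controls Mgll was the 1 member of 10 that fell with hypothyroidism, where 0.473% of clusters fell, and also the 1 member whose groups separated downward, as 7.88% of clusters did. In mutants Mgll and Pnpla3 fell, 2 of 10 against 0.454% of clusters, and in the average these 2 fell, against 1.87%. No member rose with hypothyroidism (0 of 10), against 0.638% of clusters in controls, 0.652% in mutants and 4.18% in the average. The fall in controls was called in every setting tried, with values between -1.78 and -1.50. The fall in mutants was lost without mutant euthyroid replicate 4 (-1.16, adjusted p = 0.0635) and with array SD as a covariate (-1.30, adjusted p = 0.172). Kupffer cell markers fell with hypothyroidism as well: Clec4f and Cd5l fell in the average over genotypes (-0.98 ± 0.171 and -0.85 ± 0.2 SE, limma adjusted p = 0.00359 and 0.0237). Clec4f also fell in mutants alone (-1.06 ± 0.242, adjusted p = 0.0489), and all 9 markers had a lower mean in hypothyroid mice of both genotypes. Between mutants and controls the median difference of the 9 was 0.63 in euthyroid and 0.46 in hypothyroid mice, against -0.02 and 0.34 for Mgll. The part of these markers in the result for Mgll was not tested.

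Between genotypes Mgll was not called. Mutant and control hypothyroid mice differed by 0.34 ± 0.217 (SE, 95% confidence interval -0.12 to 0.81, limma adjusted p = 0.583), with mutant replicate 7 (6.81) inside the range of the controls. Without that mouse, the difference was 0.61. In euthyroid mice the difference was -0.02 ± 0.217 (SE, 95% confidence interval -0.48 to 0.45). The contrast of the mutant effect between thyroid states was 0.36 ± 0.307 (SE, adjusted p = 1.00).

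The genes nearest to Mgll over the 12 arrays were E2f8, a transcription factor gene of the E2F family (distance 0.25), the dicarboxylate transporter gene Slc13a3 (0.26) and Mmd (0.27), against a median of 0.79 over all clusters. Slc13a3 averaged 5.55 ± 0.302 in mutant hypothyroid and 6.61 ± 0.114 in mutant euthyroid mice, and 5.25 ± 0.151 in control hypothyroid and 6.73 ± 0.238 in control euthyroid mice (SD, n = 3). As genes picked for their likeness to Mgll they are given without a test, and Mmd differed between hypothyroid and euthyroid mice by -1.45 in controls and -1.09 in mutants.

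Abhd6, another hydrolase of monoacylglycerol, also fell with hypothyroidism. Its log2 signal was 7.30, 7.77 and 7.47 in mutant hypothyroid mice, 8.14, 7.97 and 8.31 in mutant euthyroid mice, 6.41, 6.67 and 6.84 in control hypothyroid mice and 8.64, 7.97 and 8.02 in control euthyroid mice. In controls the hypothyroid mice lay below the euthyroid mice without overlap, and the difference was -1.57 ± 0.188 (SE, limma adjusted p = 0.000456). In mutants it was -0.63 and was not called, although these groups did not overlap either. Such a downward separation was seen in 7.88% of clusters in controls and 11.1% in mutants. The 3 mutant hypothyroid mice were higher than the 3 control hypothyroid mice, as in 12.4% of clusters, with a difference of 0.87 ± 0.188 (SE) that missed the threshold (limma adjusted p = 0.0801). The contrast between these mutant effects was 0.94 ± 0.266 (SE, unadjusted p = 0.00305, adjusted p = 1.00).

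**Figure D2:**
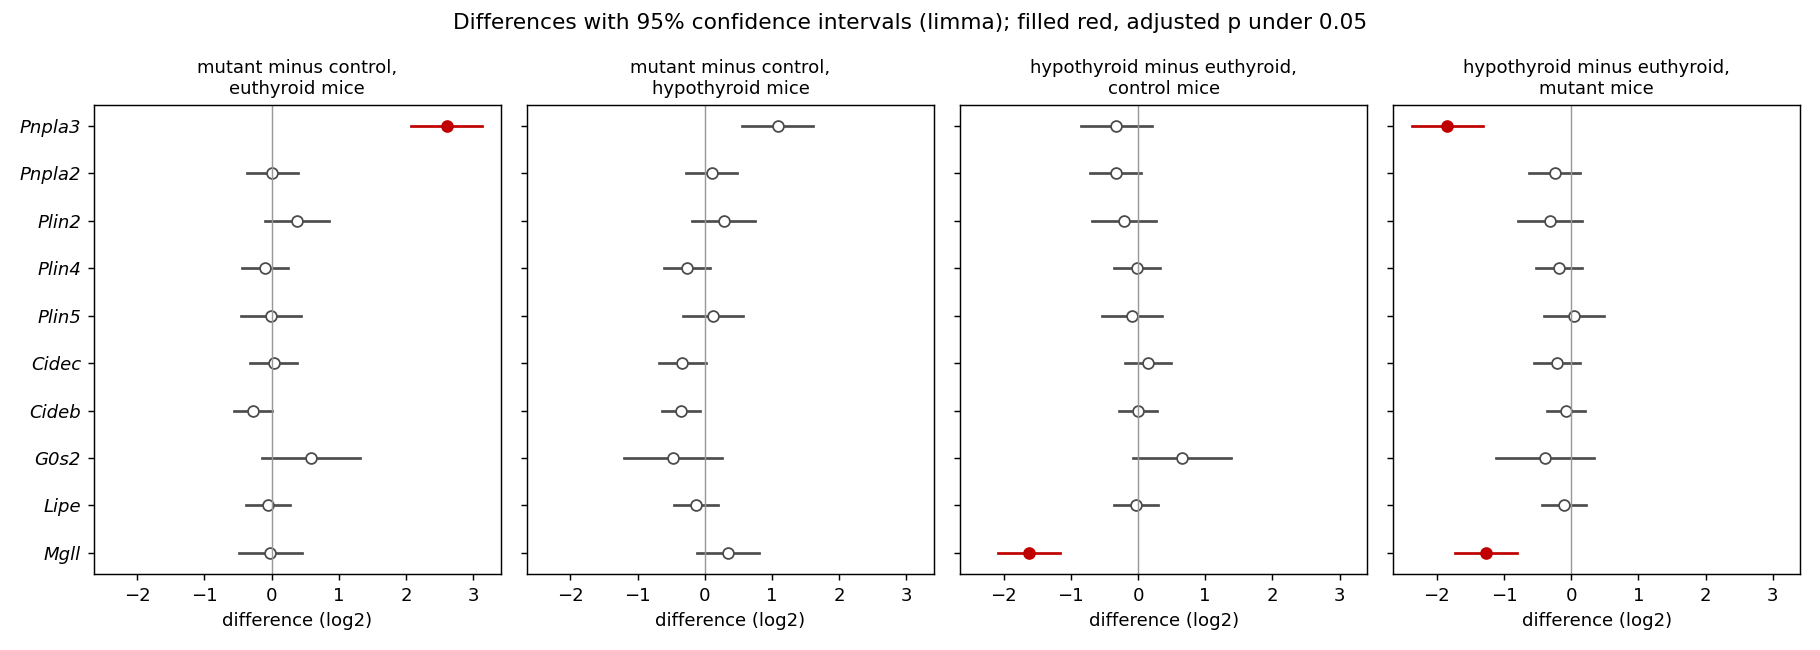
Log2 difference of each of the 10 genes (points) with its 95% confidence interval (lines) in the 4 comparisons between pairs of groups; filled red points have an adjusted p under 0.05. Pnpla3 is called in euthyroid mutants against controls (2.61) and in hypothyroid against euthyroid mutants (-1.84), and Mgll in hypothyroid against euthyroid mice of both genotypes.

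The other 8 genes were not called in any of the 7 comparisons (limma). In the 4 comparisons between pairs of groups their 32 differences lay between -0.47 and 0.66 on the log2 scale, with adjusted p-values of 0.366 or more. Of the 32, 1 had an unadjusted p under 0.05. Of all 21789 clusters, 1771 to 3448 had such a p, depending on the comparison. With G0s2 set aside, the 95% confidence intervals of the remaining 28 differences stayed within -0.79 and 0.85. Smaller changes of these genes could not be told from the spread between mice.

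The lipases that start the breakdown of triglyceride lay above the array median on all 12 arrays. Pnpla2 had a log2 signal of 6.81, 7.06 and 7.12 in mutant hypothyroid mice and 7.31, 7.25 and 7.17 in mutant euthyroid mice, against 6.99, 7.11 and 6.59 in control hypothyroid mice and 6.84, 7.50 and 7.35 in control euthyroid mice. The hypothyroid mutants were all lower than the euthyroid mutants, and the groups overlapped in the other 3 comparisons. The mutant difference was 0.10 ± 0.177 (SE) in hypothyroid and 0.01 ± 0.177 in euthyroid mice, where its 95% confidence interval was -0.37 to 0.39, against 2.08 to 3.14 for its paralog Pnpla3. With hypothyroidism Pnpla2 differed by -0.29 ± 0.125 (SE) over genotypes (unadjusted p = 0.036, limma adjusted p = 0.172), a value that was called without control euthyroid replicate 13 (-0.39, adjusted p = 0.0293) and in no other setting tried. Lipe, whose enzyme is best known from adipose tissue, ranged from 5.39 to 6.04 over all 12 mice, and its 4 differences were between -0.14 and -0.02. Abhd5, the activator of Pnpla2, averaged 7.83 ± 0.0863 in mutant hypothyroid, 7.71 ± 0.161 in mutant euthyroid, 7.58 ± 0.172 in control hypothyroid and 7.57 ± 0.264 in control euthyroid mice and was not called.

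G0s2, the inhibitor of Pnpla2, varied most between mice of a group. Its log2 signal was 8.80, 8.46 and 7.62 in mutant hypothyroid mice and 8.50, 9.17 and 8.40 in mutant euthyroid mice, against 8.88, 9.47 and 7.94 in control hypothyroid mice and 8.34, 8.02 and 7.95 in control euthyroid mice. The spread within groups (residual SD 0.543) exceeded that of 99.2% of all clusters, whose median was 0.193. The 3 euthyroid mutants were higher than the 3 euthyroid controls, by 0.58 ± 0.342 (SE, limma adjusted p = 0.675), and such a separation in this direction was seen in 5.05% of clusters. In hypothyroid mice the difference was -0.47 ± 0.342 (adjusted p = 0.631) and the groups overlapped. The contrast between thyroid states was -1.05 ± 0.483 (SE, unadjusted p = 0.0458, adjusted p = 1.00).

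Among the perilipins, Plin2 had a log2 signal of 9.87 ± 0.445 in mutant hypothyroid, 10.2 ± 0.199 in mutant euthyroid, 9.59 ± 0.255 in control hypothyroid and 9.81 ± 0.350 in control euthyroid mice (SD, n = 3). The mutants averaged 0.33 ± 0.157 (SE) higher over thyroid states (95% confidence interval -0.0048 to 0.67, limma adjusted p = 0.307), and the groups overlapped in each thyroid state. Plin5, which is known for tying droplets to mitochondria, ranged from 6.22 to 7.11 over all 12 mice, and its group means spanned 0.13. Plin4, known from adipose tissue and muscle, lay between 4.53 and 5.15, close above the array medians, with differences of -0.26 to -0.02. In the 12 differences of these 3 genes 0 had an unadjusted p under 0.05 (limma). Of all 21789 clusters, 1771 to 3448 had one, depending on the comparison.

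The 2 genes of the CIDE family differed in level and in spread. Cideb had a log2 signal of 9.57, 9.66 and 9.70 in mutant hypothyroid mice and 9.69, 9.90 and 9.58 in mutant euthyroid mice, against 10.07, 9.91 and 10.02 in control hypothyroid mice and 9.94, 10.21 and 9.86 in control euthyroid mice. All 3 mutants were below all 3 controls in hypothyroid mice, as in 10.2% of clusters in this direction, and a single euthyroid mutant overlapped the euthyroid controls. Mutants differed from controls by -0.32 ± 0.0931 (SE) over thyroid states (95% confidence interval -0.52 to -0.12), with an unadjusted p of 0.00388 and a limma adjusted p of 0.119, so that Cideb did not pass. Its residual SD of 0.133 was the smallest of the 10 genes. Cidec lay at 4.08 to 4.77, close to the array medians and above them on 11 of 12 arrays. Its largest difference was -0.33 ± 0.162 (SE, limma adjusted p = 0.494), in mutant against control hypothyroid mice, whose values did not overlap.

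Cidec, Plin4, Lipe and G0s2 are also known from adipocytes, whose markers were therefore read beside them. Adipoq, the adiponectin gene, had a log2 signal of 2.02 to 2.49 in all 12 mice, far below the array medians. Of 7 adipocyte markers measured, 5 lay below the array median on all 12 arrays, and the mean of the 7 ranged from 3.41 to 3.46 in mutant hypothyroid, 3.36 to 3.57 in mutant euthyroid, 3.38 to 3.58 in control hypothyroid and 3.44 to 3.54 in control euthyroid mice. Fabp4, which is also a PPAR target, lay above the array median on all 12 arrays, at 5.01 to 5.66 in mutant hypothyroid, 4.75 to 5.17 in mutant euthyroid, 5.03 to 5.20 in control hypothyroid and 4.45 to 5.23 in control euthyroid mice. Plin1 ranged from 3.66 to 4.94 over all mice, and no adipocyte marker was called in any comparison (limma).

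**Figure D3:**
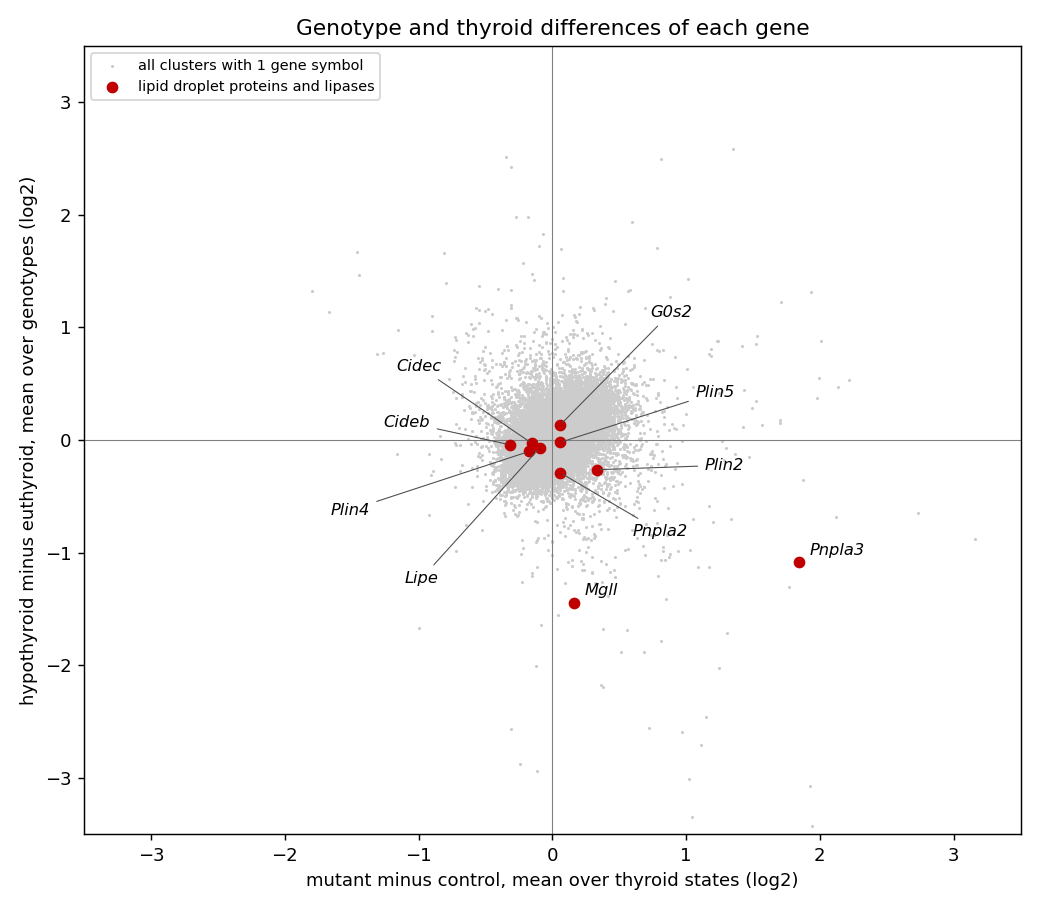
Each gene's mutant minus control difference averaged over thyroid states (horizontal, log2) and hypothyroid minus euthyroid difference averaged over genotypes (vertical, log2), for all 21789 clusters with a single gene symbol (grey, 9 outside the plotted range) and the 10 genes described (red). Pnpla3 (1.85, -1.08) and Mgll (0.16, -1.44) lie apart, and the other 8 lie within 0.34 of 0 on both axes.

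Other genes of lipid droplets and lipolysis were counted from lists of the pathway. Of 26 other lipid droplet genes measured, 0 were called in mutants against controls of either thyroid state, and in the average 1 rose, the sterol dehydrogenase gene Nsdhl (0.78 ± 0.138 SE, limma adjusted p = 0.0113). The median of the list was 0.10 there and 0.12 for hypothyroidism averaged over genotypes, against -0.01 and -0.02 over all clusters. With hypothyroidism 3 of the 26 rose in the average over genotypes, against 4.18% of clusters, and 0 fell. These were Hsd17b13, a droplet-bound dehydrogenase of hepatocytes (0.80 ± 0.119, adjusted p = 0.00107), Fitm1, a gene for a protein of droplet formation (0.82 ± 0.172, adjusted p = 0.0119), and the perilipin gene Plin3 (0.39 ± 0.0863, adjusted p = 0.0166). Hsd17b13 also rose in hypothyroid against euthyroid mutants, with 11.2, 10.9 and 10.9 against 10.1, 10.2 and 9.91 (0.94 ± 0.169 SE, adjusted p = 0.0128). The other perilipin of the list, Plin1, was not called.

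Of 24 other lipases and cofactors, 2 rose with the mutation in the average, Ces2a, a carboxylesterase gene (1.47 ± 0.0989 SE, limma adjusted p = 2.8e-06), and Lpl, lipoprotein lipase (1.35 ± 0.276, adjusted p = 0.0282), and 0 fell, with a list median of 0.18, where 0.904% of clusters rose. With hypothyroidism 4 rose and 3 fell in the average, where 4.18% of clusters rose and 1.87% fell, with a median over the list of -0.03 against -0.02 over all clusters. Lpl, which frees fatty acids from lipoproteins in the circulation, rose 8.96-fold in hypothyroid against euthyroid controls, with 7.11, 7.97 and 8.25 against 4.89, 4.28 and 4.66 (3.16 ± 0.39 SE, adjusted p = 0.000611). The carboxylesterase gene Ces1g rose by 1.00 ± 0.146 (SE, adjusted p = 0.00204) in the same comparison, while the endothelial lipase gene Lipg fell (-1.06 ± 0.239, adjusted p = 0.0451) with Abhd6. In hypothyroid against euthyroid mutants Lpl rose by 2.02 ± 0.39 (adjusted p = 0.0198), Ces1g by 0.83 ± 0.146 (adjusted p = 0.011), and Lipg fell (-1.25 ± 0.239, adjusted p = 0.0182).

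For the making of triglyceride, 2 of 14 measured genes rose with the mutation in the average, the glycerol phosphate acyltransferase gene Gpam (0.61 ± 0.0968 SE, limma adjusted p = 0.00634) and Agpat2, which adds the next fatty acid (0.56 ± 0.123, adjusted p = 0.0404). With hypothyroidism 4 rose, the phosphatidate phosphatase genes Lpin1 (1.57 ± 0.319, adjusted p = 0.00988) and Lpin2 (0.61 ± 0.135, adjusted p = 0.0166), again Gpam (0.67 ± 0.0968, adjusted p = 0.000815) and the acyl-CoA synthetase gene Acsl5 (0.48 ± 0.126, adjusted p = 0.0369), and 0 fell. The list medians were 0.052 for the mutation and 0.12 for hypothyroidism, against -0.01 and -0.02 over all clusters, of which 0.904% rose with the mutation and 4.18% with hypothyroidism. Of 18 PPAR receptors and targets, PPARs being regulators of several droplet proteins, 5 rose and 1 fell with the mutation in the average, and 4 rose and 1 fell with hypothyroidism. Of all clusters 0.904% rose and 0.234% fell with the mutation, and 4.18% rose and 1.87% fell with hypothyroidism. The list median was 0.16 in both, against -0.01 and -0.02 over all clusters. The kinase gene Pdk4 (1.70) and the peroxisomal enzyme gene Ehhadh (1.43) had the largest log2 differences with the mutation, and Creb3l3 fell (-0.54). Pparg rose by 1.37 ± 0.197 (SE, adjusted p = 0.00189) in hypothyroid against euthyroid controls and by 0.99 ± 0.197 (adjusted p = 0.023) in mutants, and the fatty acid uptake gene Cd36 by 1.85 ± 0.269 (adjusted p = 0.00199) in controls. Of the 10 genes, Plin2, Plin4, Plin5, Cidec, G0s2 and Pnpla2, which are known PPAR targets, were not called in those comparisons. Of all clusters, 0.638% rose and 0.473% fell there in controls, and 0.652% rose and 0.454% fell in mutants. These 6 genes are not a full list of targets, and Mgll was lower in both comparisons (-1.62 in controls and -1.26 in mutants). A part of PPARs in any of these values was not tested.

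**Figure D4:**
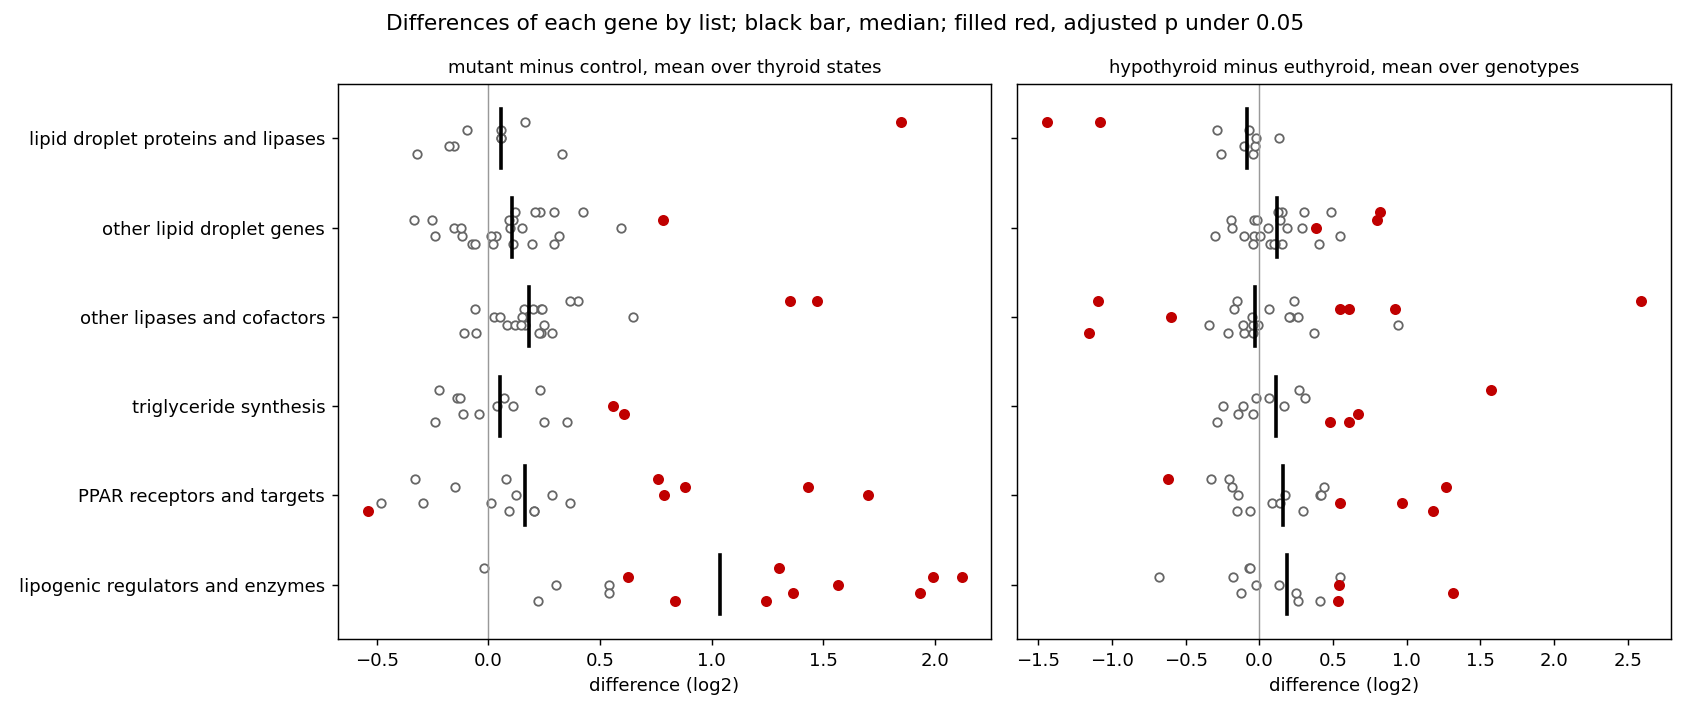
Log2 difference of each gene in the 10 genes described and in 5 lists of related genes, for mutant minus control averaged over thyroid states (left) and hypothyroid minus euthyroid averaged over genotypes (right); black bars are list medians and filled red points have an adjusted p under 0.05. Of the 10 genes 1 is called on the left (Pnpla3) and 2 on the right (Pnpla3 and Mgll), and 9 of 14 lipogenic genes are called on the left, all to the right of 0.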

How the data were processed

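Log2 signals of 35557 transcript clusters on 12 arrays were deposited by the authors, who used RMA (background correction, normalization between arrays and summary of probes), per the submitters' processing notes. Per the labels' protocols, 200 ng of total RNA was used per array. The RMA options, genome build and scan dates were not given in the sources used here. Gene names came from the platform annotation. Groups were taken from sample titles, and no group shares replicate numbers with another.

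The deposited log2 values were fitted without a filter with limma 3.58.1 in R 4.3.3: 4 group means, 12 arrays, 21789 clusters with 1 symbol, moderated variances (prior degrees of freedom 6.83, residual 8) and Benjamini-Hochberg adjustment within each of 7 comparisons, with calls at an adjusted p under 0.05. SEs and 95% confidence intervals are those of this fit. The fit was tested on simulated data. The number of arrays limits the precision. Percentages of clusters called or separated are over the 21789. Each group enters several comparisons, which therefore share samples.

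The members, gene lists and settings were chosen with earlier results of these data known. All members are named. Related genes were named by size of difference among called genes of a list, up to 4 per list and comparison, and 3 nearest genes for each called member whose group means spanned over 1. Genes or values outside that rule (Abhd5, Srebf1, Plin1, Fabp4 and Creb3l3, and Scd1 in the interaction) were chosen after their values were seen. Alternatives were quantile normalization, median centring, a filter at the median level, adjustment over the whole table, the compared groups alone, array SD as a covariate, leaving out each array, and leaving out both outlying arrays.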

Additional observations from a re-analysis of the deposited data

Results flagged for a closer look

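Signals of Cidec in hypothyroid mice lay on opposite sides of the euthyroid mean in the 2 genotypes. The 3 hypothyroid mutants (4.38, 4.41 and 4.17) all lay below the mean of the euthyroid mutants (4.53), and the 3 hypothyroid controls (4.71, 4.68 and 4.55) all lay above the mean of the euthyroid controls (4.50). The interaction, which tests this difference, was -0.36 ± 0.228 (SE, limma adjusted p = 1.00) and did not pass. The pattern rests on euthyroid control replicate 13 (4.08): without it the difference between hypothyroid and euthyroid controls was -0.059 and the interaction -0.15.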

How the results depend on the processing

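The 4 comparisons between pairs of groups are tallied here for every member, and the averages and the interaction for only some members. Of these differences recomputed under each alternative, 905 kept direction and side of the threshold, 54 turned sign (29 of them on leaving out an array), 4 fell out of the calls and 1 entered them. The calls of Pnpla3 (mutant against control, euthyroid and average) and of Mgll (hypothyroid against euthyroid, controls and average) held in all settings run. With array SD as a covariate the count of members called in hypothyroid against euthyroid mutants was 0 and in the average over genotypes 1, because Pnpla3 (-1.49 and -0.79) and, in mutants, Mgll (-1.30) were not called, and the cause was not tested. On leaving out 1 array these counts ranged from 1 to 2 and from 2 to 3, the fall of Mgll in mutants ran from -1.44 to -0.99 (lost without mutant euthyroid replicate 4), and Pnpla2 averaged -0.39 to -0.21. In this tally every sign that turned belonged to a difference that was not called, the largest being -0.26 (Plin4, mutant against control, hypothyroid). Quantile normalization gave Pnpla2 -0.049 (mutant against control, euthyroid) and -0.0018 (hypothyroid), and Plin5 -0.067 (hypothyroid against euthyroid mutants). Median centring gave Plin4 0.012, Cideb 0.028 and Lipe 0.0052 (hypothyroid against euthyroid controls), and Plin5 0.028 and Mgll 0.023 (mutant against control, euthyroid). The array SD covariate gave Plin4 0.066 and 0.021 (mutant against control, euthyroid and hypothyroid), 0.21 and 0.17 (hypothyroid against euthyroid, controls and mutants), Plin5 0.062 (mutant against control, euthyroid) and 0.019 (hypothyroid against euthyroid controls), Cidec 0.14 (hypothyroid against euthyroid mutants), and Lipe 0.087, 0.11, 0.18 and 0.20 in the 4 comparisons. Without both outlying arrays the values were Plin4 0.042, Plin5 0.093, Cideb 0.10 and Lipe 0.13 (hypothyroid against euthyroid controls), and Plin5 0.17 and Lipe 0.11 (mutant against control, euthyroid). Leaving out 1 array at a time turned signs within these ranges: (mutant against control, euthyroid mice) Pnpla2 -0.18 to 0.15, Plin4 -0.20 to 0.050, Plin5 -0.27 to 0.17, Cidec -0.18 to 0.16, Lipe -0.22 to 0.11 and Mgll -0.17 to 0.090, and (mutant against control, hypothyroid mice) Pnpla2 -0.050 to 0.21 and Plin5 -0.052 to 0.22, and (hypothyroid against euthyroid, controls) Plin4 -0.10 to 0.042, Plin5 -0.35 to 0.093, Cidec -0.059 to 0.29, Cideb -0.073 to 0.10 and Lipe -0.20 to 0.13, and (hypothyroid against euthyroid, mutants) Plin5 -0.030 to 0.14 and Cideb -0.15 to 0.0070. No member had another cluster of its symbol, so that alternative gave no value. No paired analysis was possible because the groups share no replicate numbers. With 3 arrays a group, the intervals of the 8 members that were not called reached -1.20 and 1.39.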
